A study of Rattus norvegicus with 3 samples.

Results

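The comparison described here set the microRNAs (miRNAs) of untreated rat astrocytes against those of astrocytes given an inflammatory mixture, using the miRNAs that carry a rat name in the deposited files. All rows with a rat name were summed by mature miRNA, each library was scaled by its rat-named total, and the 369 of 499 that reached 50 counts in either library were described further. The other 130 were under 50 counts in both, and 8 of them were at 0 in both. The cells were primary wild-type astrocytes from newborn rats. They were left untreated, or were given IL-1α, TNF-α and complement C1q on day 6 for 24 h, and extracellular vesicles (EVs, membrane particles released by cells) were then collected from their medium for small RNA sequencing. The labels put all libraries in 1 batch, and 1 sentence of the protocol has the RNA taken from the astrocytes themselves, which leaves the source of the RNA uncertain. There was 1 library per condition. Ratios therefore compare 2 libraries and have no replicate check, and their 95% intervals cover counting error only. A further library, from astrocytes given IL-4 with C1q, is quoted as a value beside some results.

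IL-1α, TNF-α and C1q are signals that microglia release, and together they move astrocytes into a reactive, inflammatory state. A miRNA is cut from a hairpin precursor that yields a 5p and a 3p strand, or arm. The strand that is kept pairs with messenger RNAs mainly through its seed, bases 2 to 8, so miRNAs with the same seed share many targets. Several hairpins often lie on 1 primary transcript, so that miRNAs of different seeds are made together. EVs carry a sample of a cell's miRNAs, and culture medium with serum can carry others.

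The sequences below are those on which the results turn: a seed family whose members were made from 3 different transcripts, its transcript neighbours with other seeds, pairs that share a seed but went different ways, and the leading miRNAs of the higher and lower sets. They are RefSeq mature sequences on rat build GRCr8, written 5′ to 3′ with the seed in capitals. RefSeq held an entry for 335 of the 369 miRNAs, and miR-200a-3p, miR-200b-3p, miR-124-3p and miR-486 are among those only named here.
miR-17-5p (chr15:98587861-98587883, plus strand): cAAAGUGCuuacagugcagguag
miR-20a-5p (chr15:98588318-98588340, plus strand): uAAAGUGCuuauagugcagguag
miR-20b-5p (chrX:137343239-137343261, minus strand): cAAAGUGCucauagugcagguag
miR-93-5p (chr12:22156894-22156916, minus strand): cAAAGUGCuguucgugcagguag
miR-106b-5p (chr12:22157103-22157123, minus strand): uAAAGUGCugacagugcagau
miR-18a-5p (chr15:98588000-98588022, plus strand): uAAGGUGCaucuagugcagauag
miR-19b-3p (chr15:98588486-98588508, plus strand): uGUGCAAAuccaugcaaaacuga
miR-92a-3p (chr15:98588602-98588622, plus strand): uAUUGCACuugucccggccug
miR-351-5p (chrX:137725157-137725181, minus strand): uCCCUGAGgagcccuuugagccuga
miR-125b-5p (chr11:29732588-29732609, plus strand): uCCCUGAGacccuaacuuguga
miR-125a-5p (chr1:67350689-67350712, plus strand): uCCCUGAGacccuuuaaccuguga
miR-28-5p (chr11:89480303-89480324, minus strand): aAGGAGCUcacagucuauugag
miR-708-5p (chr1:160011168-160011190, plus strand): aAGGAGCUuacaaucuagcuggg
miR-23a-3p (chr19:40859778-40859798, minus strand): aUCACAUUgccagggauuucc
miR-23b-3p (chr17:1819405-1819425, minus strand): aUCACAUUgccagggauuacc
miR-370-3p (chr6:134354538-134354559, plus strand): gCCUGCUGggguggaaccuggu
miR-541-5p (chr6:134578434-134578458, plus strand): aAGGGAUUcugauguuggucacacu
miR-143-3p (chr18:57371373-57371394, minus strand): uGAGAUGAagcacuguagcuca
miR-199a-3p (chr13:77116294-77116315, plus strand): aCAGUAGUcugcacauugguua
miR-200c-3p (chr4:159209969-159209989, minus strand): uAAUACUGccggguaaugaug
miR-141-3p (chr4:159209540-159209561, minus strand): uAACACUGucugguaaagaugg
miR-451-5p (chr10:63459585-63459606, plus strand): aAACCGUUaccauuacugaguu
miR-122-5p (chr18:61028831-61028852, plus strand): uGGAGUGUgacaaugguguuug
miR-17-5p, miR-19b-3p and miR-92a-3p have a further, identical copy on chromosome X, so their counts cannot be divided between the copies. miR-23a-3p and miR-23b-3p differ by U19A, counted from the 5′ end.

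The untreated library held 5930379 rat-named counts and the IL-1α/TNF-α/C1q library 11633125, which were 93.9% and 94.4% of the counts with a miRNA name. The IL-4/C1q library held 7345954. CPM below is a count per 1000000 rat-named counts of its library, and 5 counts, the floor used against a count of 0, were 0.843 CPM untreated and 0.430 CPM after the mixture. The libraries also differed in rows named for cattle: these held 4688 counts per 1000000 rat-named counts in the untreated library, 630.5 with the inflammatory mixture and 796 with IL-4/C1q. A name shows the database entry a read was assigned to and not the animal it came from, and the part of these rows in the results below was not tested.

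Most rat-named miRNAs had shares within 2-fold of each other in the 2 libraries. The median log2 ratio, IL-1α/TNF-α/C1q over untreated, was 0.04 over the 369 miRNAs, and its quartiles were −0.46 and 0.71. By a size rule that asked for 50 counts or more in either library, a difference of at least 2-fold and an interval that excluded 1, 101 miRNAs differed, which is 27.4% of those tested. Of these 55 were higher (14.9%) and 46 lower (12.5%), while 268 did not pass. The interval alone excluded 1 for 314, since counting error is small at this depth.

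The higher and the lower set had different shapes. Of the higher miRNAs 5 reached 4-fold and 1 reached 10-fold, against 25 and 13 of the lower ones. The 5 had only 5 to 18 counts untreated, so their ratios have wide intervals. Some of the largest lower differences also rest on few treated counts. Together the 55 higher miRNAs took 2.84% of the untreated counts and 7.37% after the mixture, and the 46 lower ones took 1.995% and 0.281%. The higher set also reached into the abundant miRNAs: among the 75 miRNAs that reached 10000 counts 11 were higher and 2 lower. Among the 83 with 50 to 200 counts 20 were higher and 14 lower. These bins use raw counts of the higher library and are uneven between the 2 sets. The treated library held 11633125 rat-named counts against 5930379 untreated, so miRNAs higher there enter a bin at a lower CPM. The same holds for the minimum of 50 counts. By arm, 26 of the higher were 5p and 23 were 3p strands, the lower set held 13 and 25, and the miRNAs that did not pass held 119 and 126.

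**Figure D1:**
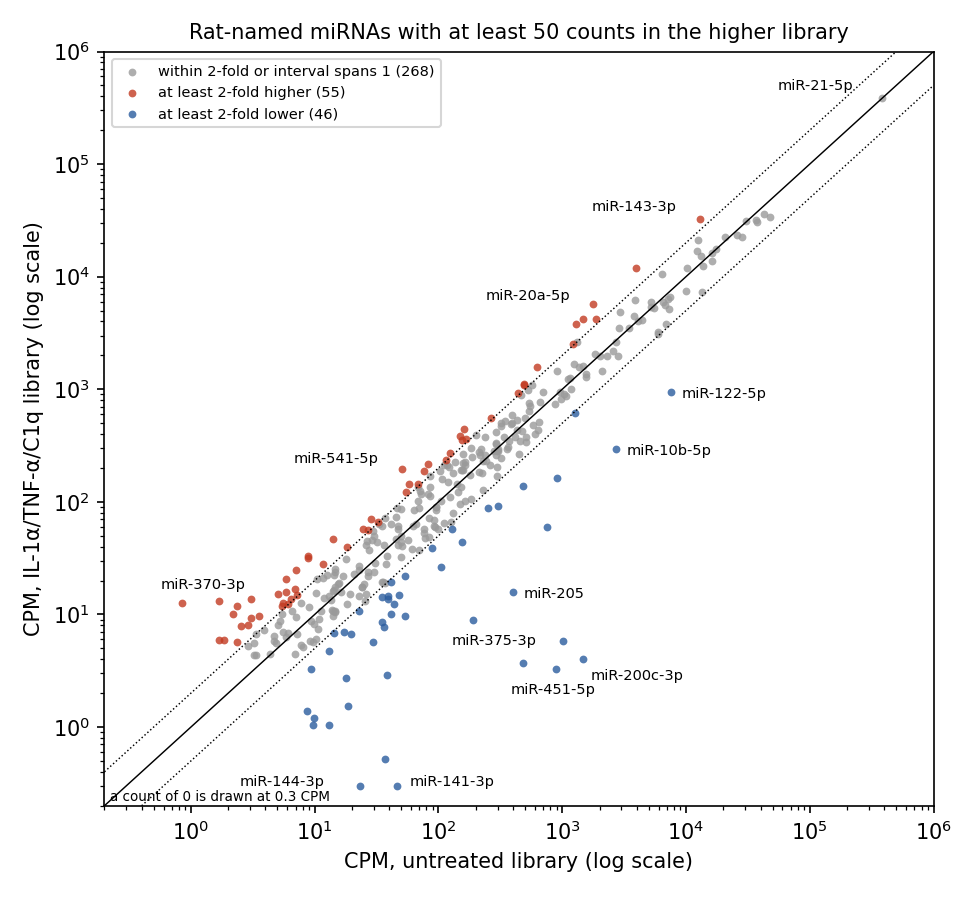
Level of each of the 369 rat-named miRNAs in the untreated library (horizontal) and the IL-1α/TNF-α/C1q library (vertical), in CPM on log scales; 1 point is 1 miRNA, the solid line marks equal levels and the dotted lines 2-fold. Red points (55) were at least 2-fold higher, and 5 of them reached 4-fold. The blue points (46) were at least 2-fold lower and reach as far as miR-200c-3p, at 1458 and 4.04 CPM.

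The threshold of 50 counts has no break in the data. The 5 miRNAs just inside it, with 51 to 52 counts, had ratios from 0.160 to 1.37, and the 5 just outside, with 45 to 49 counts, had ratios from 0.125 to 2.99.

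The miRNAs that dominate astrocytes were close to equal. miR-21-5p, which restrains Pdcd4 and is abundant in glia, took 38.1% of the untreated and 38.7% of the treated counts, a ratio of 1.01 (95% interval 1.01 to 1.02). miR-9a-5p, a neural lineage miRNA, took 4.76% and 3.41%, and miR-125b-5p 4.28% and 3.63%. Both differences are outside counting error and well inside the 2-fold limit. The 10 most abundant miRNAs took 66.9% and 65.2%. miR-143-3p entered the 10 most abundant at rank 4, and miR-92a-3p left them. The astrocyte and neural lineage list, chosen to check the labelled cell type, held 542926 CPM untreated and 518858 CPM treated. miR-21-5p, at the shares given above, carries most of both sums, so they do not by themselves establish the cell type. None of the list's 13 tested members was higher, and 2, miR-204-3p and miR-449a-5p, were lower, a share near the 12.5% over all tested miRNAs.

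Several families of high abundance also moved little. In the let-7 and miR-98 list, whose miRNAs repress Lin28 and cell growth genes, 0 of 14 tested members were higher and 1, let-7e-3p, was lower. Its median log2 ratio was −0.02, with a sign that turned under another scaling, beside 0.04 over all tested miRNAs. None of 9 miR-30 members, 2 miR-29 members, 8 miR-181 members and 9 members of the miR-99, miR-100 and miR-125 list passed the rule, with medians of −0.28, −0.17, −0.46 and 0.35. Over all tested miRNAs 27.4% passed, so counts of 0 in lists this small say little by themselves. In the miR-181 family the spread was wider than the median shows. miR-181a-5p was at 13442 CPM untreated and 7374 CPM treated, a log2 ratio of −0.87, while miR-181d-5p went from 903 to 1442 CPM, a log2 ratio of 0.68.

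The seed family AAAGUGC stood highest among the families with 3 or more members. It is known for promoting cell division, with the cell-cycle inhibitor Cdkn1a among its targets, and its 5 members come from the miR-17-92a transcript on chromosome 15, its copy on chromosome X and the miR-106b-25 transcript on chromosome 12. Summed over members it held 4218 CPM untreated and 12003 CPM after the mixture, 2.85-fold higher (95% interval 2.81 to 2.88), with 9135 CPM in the IL-4/C1q library. Without miR-20a-5p, its most abundant member, the ratio was 2.57.

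The members were not equal. miR-20a-5p had 10601 counts untreated and 66820.5 treated, or 1788 and 5744 CPM, a ratio of 3.21 (3.15 to 3.28). miR-93-5p went from 1478 to 4206 CPM, a ratio of 2.85 (2.78 to 2.91), and miR-17-5p from 624 to 1565 CPM, a ratio of 2.51 (2.42 to 2.60). These 3 passed the rule. miR-20b-5p, with 61.75 and 241.5 counts, had a ratio of 1.99 that passed 2-fold under 6 of the other settings, and miR-106b-5p went from 318 to 467 CPM, a ratio of 1.47 (1.39 to 1.55).

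Of the 34 families with 2 or more tested members, 3 had summed counts past 2-fold, all upward. The second was AUACAAG, with miR-381-3p and miR-539-3p of the Dlk1-Dio3 region, at 165.5 and 459 CPM. The third was AGGAGCU, with miR-28-5p and miR-708-5p, at 460 and 940 CPM. This last family had members that passed the rule in opposite directions. miR-28-5p, from an intron of Lpp, had 2594 and 10806 counts, a ratio of 2.12 (2.03 to 2.22). miR-708-5p had 136 and 126 counts, and was 2.12-fold lower (1.65 to 2.72), though it was no longer past 2-fold under the scaling constants of the authors. The family sum therefore follows its abundant member.

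In 9 of the 34 families some members passed the rule and others did not. miR-351-5p shares the seed CCCUGAG with miR-125a-5p and miR-125b-5p. It had 11062 and 48914 counts, a ratio of 2.25 (2.21 to 2.30), while miR-125a-5p had a ratio of 1.15 and miR-125b-5p, at 42822 and 36322 CPM, a ratio of 0.848. The family sum was 57783 and 55647 CPM. miR-23b-3p went from 1501 to 1031.5 counts and was 2.85-fold lower (2.63 to 3.09), while miR-23a-3p, which differs from it by 1 base near the 3′ end, had a ratio of 1.04. miR-449a-5p, of multiciliated cells, was 3.51-fold lower, at 155 and 44.1 CPM, beside miR-34c-5p of the same seed at 6504 and 5958 CPM. Its genomic neighbour miR-449c-5p, again of that seed, had 20 and 78 counts, a ratio of 1.99 that passed 2-fold upward under 5 other settings. Likewise miR-211-5p was 5.17-fold lower and miR-204-5p had a ratio of 0.868, and miR-215 was 4.08-fold lower and miR-192-5p had a ratio of 0.762. In these last 4 seed groups the member that passed was the scarcer of the pair, and the summed counts stayed within 2-fold.

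**Figure D2:**
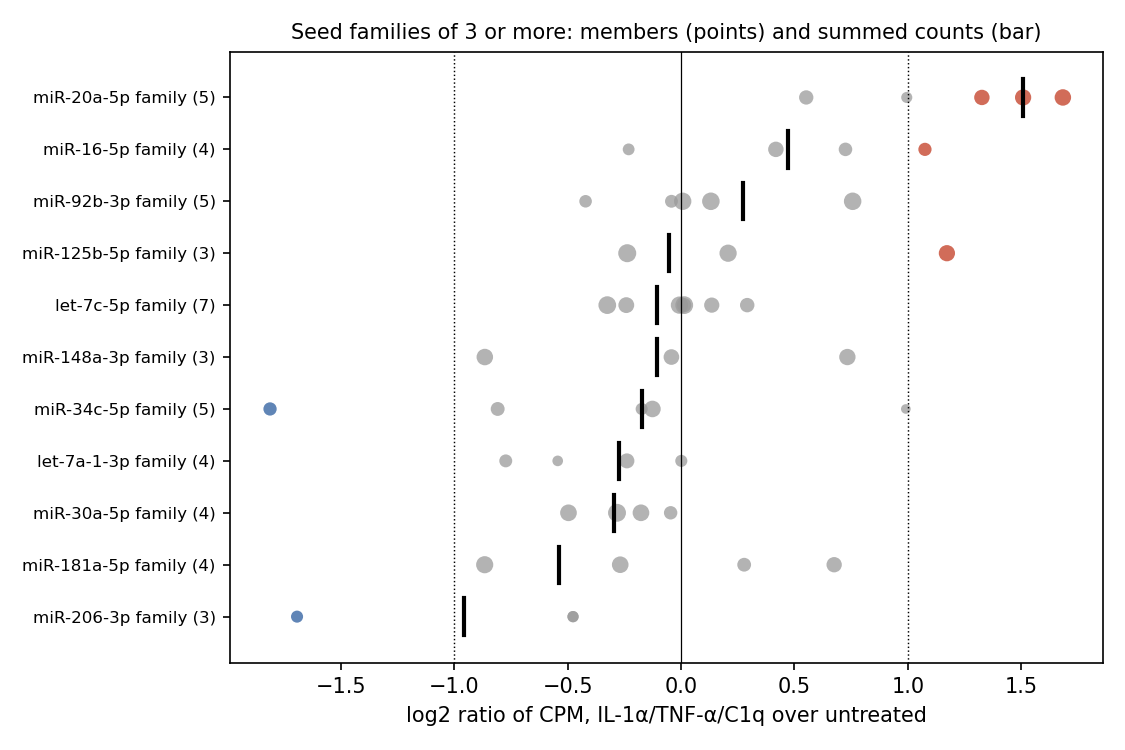
Log2 ratio (IL-1α/TNF-α/C1q over untreated) of each member of the 11 seed families with 3 or more tested members; 1 point is 1 miRNA, larger points are more abundant, red and blue points passed the size rule upward and downward, and the black bar is the ratio of the summed counts. The miR-20a-5p family has its bar at 1.51 with all 5 members above 0; the other bars lie between −0.96 and 0.47.

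miRNAs that lie together in the genome often moved together. Mature sequences on the same strand with no gap over 10 kb were grouped, which placed 170 of the 335 located miRNAs in 38 groups. The largest share of the higher set came from the imprinted Dlk1-Dio3 region of chromosome 6, whose miRNAs are made from the maternal chromosome and include miR-127, miR-370 and miR-541. Its 3 groups held 48 tested miRNAs. Of these 26 were higher, 2 were lower and 43 had a ratio above 1. Several of the higher ones reached the count minimum only in the treated library, which held more counts. Among them were miR-370-3p, miR-665, miR-673-5p, miR-1188-5p and miR-485-5p. Others, such as miR-127-3p, miR-341, miR-381-3p and miR-541-5p, reached it in both libraries. The counts of higher members in this region, here and below, therefore depend in part on the minimum. Together with a group on chromosome X described below, these 3 groups supplied 31 of the 55 higher miRNAs. Of the 309 tested miRNAs outside these groups 24 were higher and 44 lower. The 309 include miRNAs with no RefSeq location. They also include Dlk1-Dio3 list members that were not placed in the groups, such as miR-136-5p, which was higher, and miR-299b-3p, which was lower. The chromosome X group was joined to the region with its values known, so this contrast is descriptive only.

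In the first group, chr6:134298129-134331404, 9 of 13 tested miRNAs were higher and all 13 had ratios above 1. It holds miR-127-3p, antisense to Rtl1, with 2885 and 12871 counts, a ratio of 2.27 (2.18 to 2.37), and 1309 CPM in the IL-4/C1q library. miR-665 had 10 and 154 counts, a ratio of 7.85 (4.16 to 16.7). miR-540-3p had 83 and 546 counts and miR-673-5p 14 and 138. The highest ratio of the whole comparison was next to this group. miR-370-3p had 5 counts untreated, 146 after IL-1α/TNF-α/C1q and 15.3 CPM in the IL-4/C1q library, a ratio of 14.9 whose interval, 6.24 to 46.5, is wide because 1 value is at the smallest count the files usually list. Its 2 neighbours were also higher. miR-341 had 924 and 4085 counts, and miR-1188-5p had 13 and 117.

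In the long group from miR-379 to miR-410, chr6:134543460-134579828, 14 of 32 tested miRNAs were higher and 2 were lower. miR-541-5p had 302 and 2267 counts, a ratio of 3.83 (3.39 to 4.33). miR-381-3p had 948.5 and 5193 counts, a ratio of 2.79 (2.61 to 2.996), and miR-485-5p had 18 and 161. The 2 lower ones lie at the far end of the group, beside miRNAs that were not lower. miR-369-3p had 2844 and 1605 counts and was 3.48-fold lower (3.27 to 3.70), while the other arm of its hairpin, miR-369-5p, had 20 and 51 counts. miR-412-5p had 316 and 112 counts and was 5.53-fold lower (4.45 to 6.93). Another Dlk1-Dio3 list member, miR-299b-3p, had 57 and 12 counts and was 9.32-fold lower. Over the lists, 10 of 14 tested proximal members were higher and 0 lower, and 14 of 34 distal members were higher and 3 lower. The median log2 ratios were 1.19 and 0.77. Over all tested miRNAs 14.9% were higher and 12.5% lower.

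The X-linked group around miR-351, chrX:137720952-137726219, includes miR-322 and miR-503, known for promoting exit from the cell cycle in muscle cells. Of its 12 tested miRNAs 5 were higher and 11 had ratios above 1, with a median log2 ratio of 0.97. miR-503-5p had 490 and 2515 counts, a ratio of 2.62 (2.37 to 2.89), and miR-542-3p had 2924 and 12640, a ratio of 2.20. miR-322-5p, the counterpart of human miR-424, had 408 and 1687 counts, a ratio of 2.11. miR-450a-5p, at 7791 and 30403.5 counts, had a ratio of 1.99 and did not pass. The exception was miR-542-5p, with 46 and 62 counts and an interval that spans 1.

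The miR-17-92a transcript did not move as a block. On chromosome 15, 3 of 8 tested miRNAs were higher: miR-17-5p, miR-18a-5p and miR-20a-5p. miR-18a-5p had 35 and 239 counts, a ratio of 3.48 (2.43 to 5.12). miR-19b-3p went from 968 to 953 CPM, a ratio of 0.984, and miR-92a-3p from 17471 to 17558 CPM, a ratio of 1.00. The 3 that passed have the seeds AAAGUGC and AAGGUGC, while miR-19b-3p and miR-92a-3p, printed above, have other seeds. miR-17-5p, miR-19b-3p and miR-92a-3p each also collect counts from the copy on chromosome X. On chromosome 12 miR-93-5p passed, while its neighbours miR-25-3p, with 12522 and 21158 CPM, and miR-106b-5p had ratios of 1.69 and 1.47. All 6 tested miRNAs of that transcript were above 1.

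Smaller transcripts gave the same mixed picture. On chromosome 18, 3 of 4 miRNAs of the smooth muscle transcript miR-143/miR-145 were higher. miR-143-3p went from 12935 to 32402 CPM, and to 51943 CPM in the IL-4/C1q library. miR-145-5p, at 71.2 and 124 CPM, had a ratio of 1.74. On chromosome 13 both arms of miR-199a were higher, with ratios of 2.99 and 2.97, while miR-214-3p from the same transcript went from 158 to 223 CPM, a ratio of 1.41. These are the mesenchymal markers, and 5 of that list's 7 members were higher, beside 14.9% over all tested miRNAs. All 7 lie in these groups on chromosomes 18 and 13, so they are not 7 independent cases. The list's summed level was 18742 CPM untreated, 49122 with the mixture and 72232 with IL-4/C1q. miR-143-3p carries most of that sum and sits in 1 row with a substitution tag; without such rows the list held 5994 and 17609 CPM, and 4 of 6 tested members were higher. In such a bulk measurement more vesicles from cells of that type and more of the miRNA per vesicle cannot be told apart. All 4 miRNAs of the miR-221 and miR-222 transcript, which restrains Cdkn1b, had ratios between 1.37 and 1.98, and 0 passed, though miR-221-5p did so under 3 other settings.

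**Figure D3:**
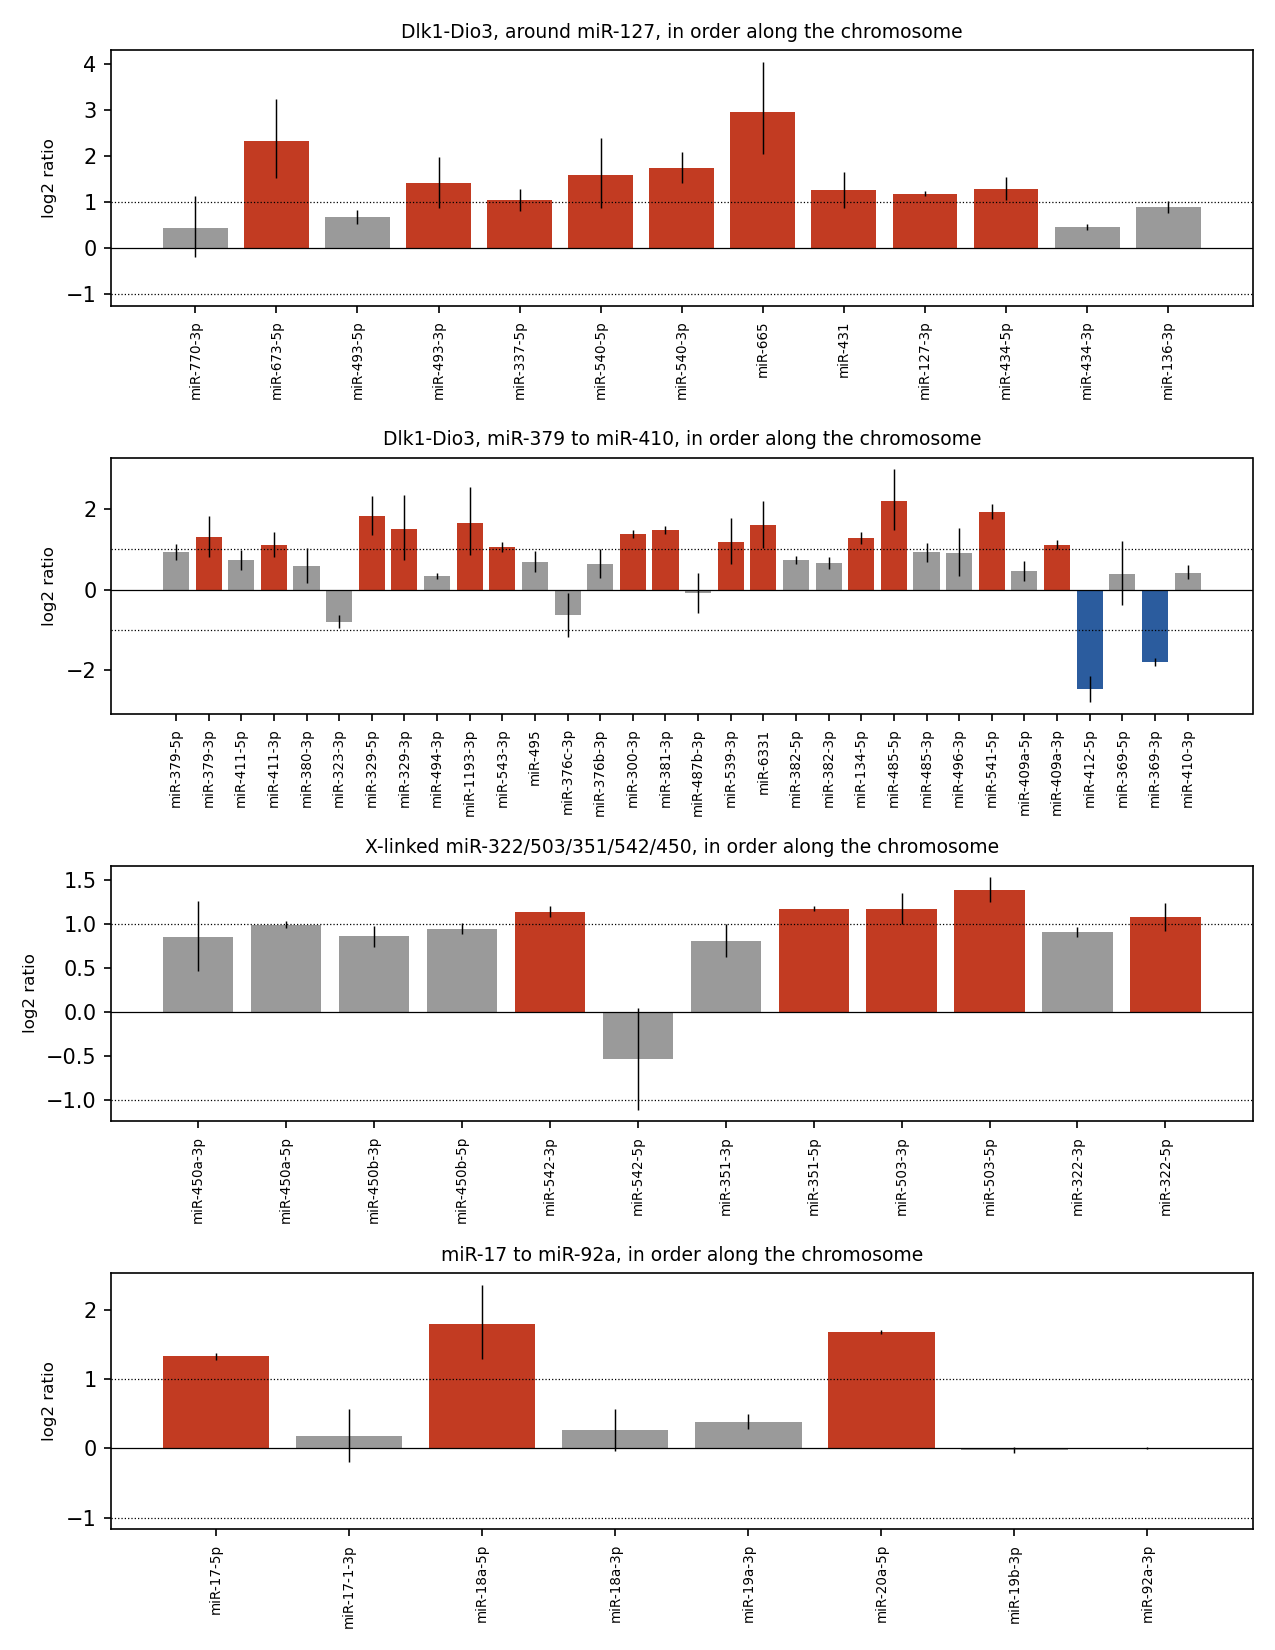
Log2 ratio (IL-1α/TNF-α/C1q over untreated) of the tested miRNAs of 4 genomic groups in their order along the chromosome; bars start at 0, thin lines are 95% counting intervals, dotted lines mark 2-fold, and red, blue and grey bars were higher, lower or did not pass. All 13 bars of the group around miR-127 and 11 of 12 on chromosome X point up, miR-412-5p and miR-369-3p point down at the end of the miR-379 to miR-410 group, and miR-19b-3p and miR-92a-3p are at 0 beside miR-18a-5p and miR-20a-5p.

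The lower set was led by miRNAs of other tissues. All 10 tested members of the epithelial list were lower, as were all 4 of the erythroid list, all 4 of the HOX cluster list and 2 of 4 of the liver and gut list. These lists hold 20 of the 46 lower miRNAs, and 12.5% of all tested miRNAs were lower. The epithelial list has 14 names, and those short of the count minimum in both libraries were not tested. Several lower members of these lists reached that minimum in the untreated library only. In the epithelial list miR-141-3p, miR-200c-3p and miR-200b-5p were among them. In the erythroid list these were miR-144-3p, miR-144-5p and miR-451-5p, and in the HOX list miR-10a-3p and miR-10b-3p. The counts of lower members therefore depend in part on the minimum. Summed levels went from 3969 to 140 CPM for the epithelial list, from 1858 to 168 CPM for the erythroid list, from 3478 to 356 CPM for the HOX list and from 8246 to 1412 CPM for the liver and gut list. In the IL-4/C1q library the sums were 135, 174, 472 and 1713 CPM. The untreated library was thus the one that stood apart, and with 1 untreated library a loss after both treatments cannot be told apart from an excess in that library. The cattle-named rows were likewise highest there, at the values given above, and their part was not tested.

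Within the epithelial list, members of the same hairpin or transcript differed in size. miR-200c-3p, which restrains Zeb1 and Zeb2, had 8646 and 47 counts and was 361-fold lower (271 to 491.5). Its transcript neighbour miR-141-3p had 273 and 0 counts, at least 107-fold lower against the floor of 5 counts in the treated library, a bound that is approximate. miR-200b-3p had 6009 and 67 counts and was 176-fold lower, while the other arm of the hairpin, miR-200b-5p, had 78 and 12 and was 12.8-fold lower. miR-205, of stratified epithelia, was 25.1-fold lower, miR-375-3p, of endocrine cells, 21.3-fold and miR-182, of sensory epithelia, 13.0-fold. miR-203a-3p, of skin, was the least changed of the list, with 1784 and 1073 counts, 3.26-fold lower. The list's median log2 ratio was −4.42 on the log2(CPM + 1) scale. miR-200a-5p, which was under 50 counts, was also at 0 after the mixture, and miR-429 had 0 and 5 counts.

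The erythroid miRNAs miR-144 and miR-451 come from 1 transcript on chromosome 10. miR-451-5p, which is matured by Ago2 without Dicer, had 5291 and 38 counts and was 273-fold lower (199 to 386). miR-144-3p had 138 and 0 counts, at least 54.1-fold lower against the same floor, and miR-144-5p had 220 and 6. miR-486, from an intron of Ank1 on another chromosome, had 5368 and 1905 counts and was 5.53-fold lower (5.25 to 5.83), far less than the transcript pair. The list median was −4.63 on the log2(CPM + 1) scale and −5.96 on the plain scale with miR-144-3p at its bound.

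The liver miRNA miR-122-5p was the most abundant miRNA of the lower set, with 44888 and 11049 counts, 7569 and 950 CPM, 7.97-fold lower (7.80 to 8.14). miR-215 of the same list was lower too, whereas miR-192-5p and miR-194-5p had ratios of 0.762 and 0.582. miR-10a-5p and miR-10b-5p, which lie within the Hox gene clusters that pattern the trunk, were 12.4-fold and 9.24-fold lower, at 746 and 60.1 CPM and at 2713 and 294 CPM. Their 3p arms, with at most 59 counts, were 6.25-fold and 8.27-fold lower. Both arms of both hairpins thus stood on the same side.

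The lower set also held single miRNAs of neural and other cells, in lists whose small counts are to be read against the 12.5% lower over all tested miRNAs. miR-124-3p, the main neuronal miRNA, had 616 and 307 counts, 3.94-fold lower (3.43 to 4.53), and was the 1 lower member among 9 tested in the neuron list, whose median was −0.46. miR-219a-1-3p was the 1 lower of 4 oligodendrocyte members, and miR-126a-3p the 1 lower of 2 endothelial members. miR-133a-3p and miR-206-3p were lower among 5 muscle members. miR-335, from an intron of the imprinted Mest gene, had 7508 and 7130 counts, which is 2.07-fold lower (1.999 to 2.13) once the library totals are taken into account.

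**Figure D4:**
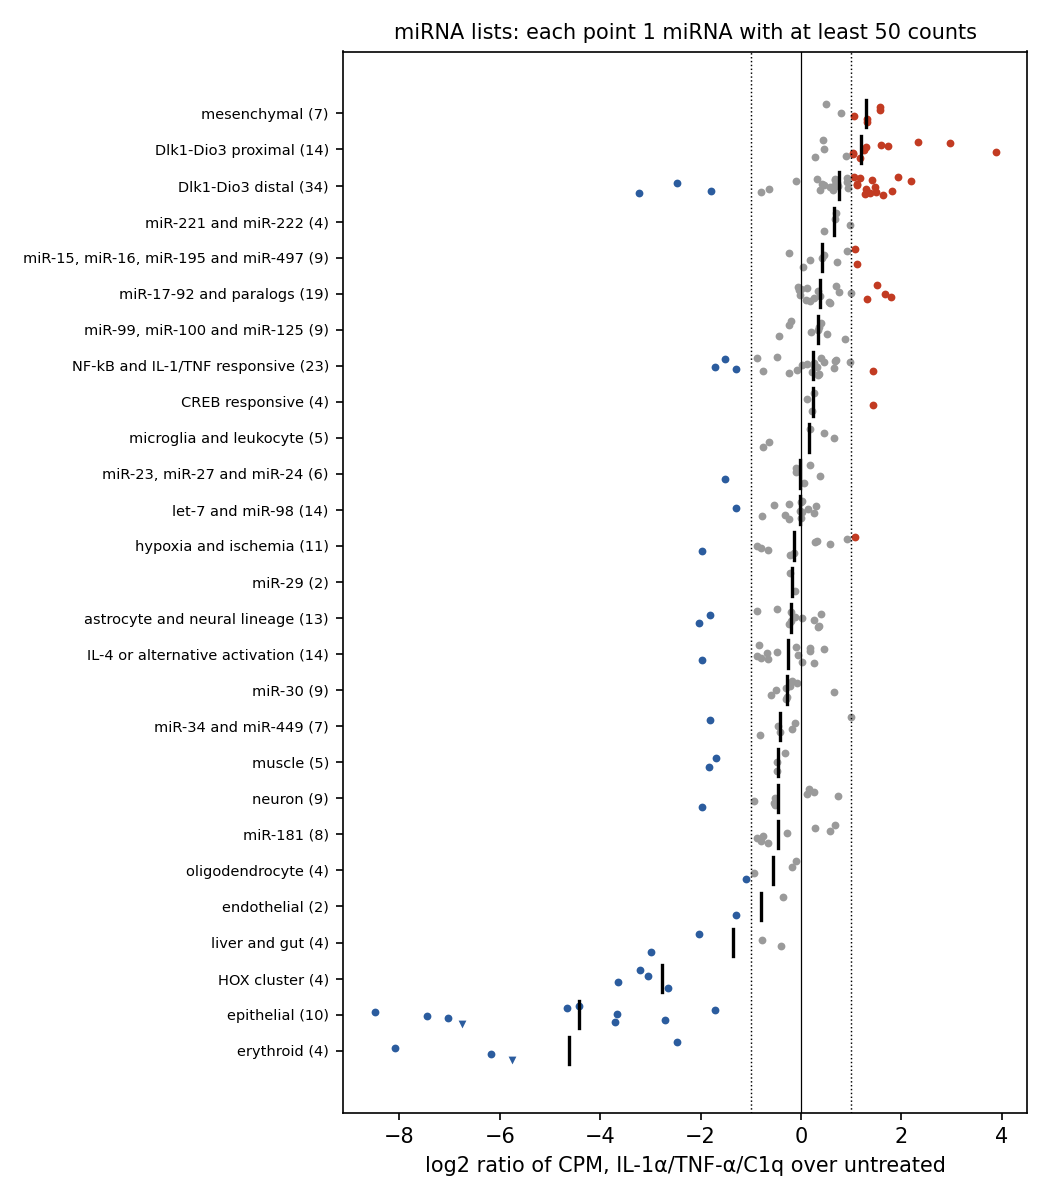
Log2 ratio (IL-1α/TNF-α/C1q over untreated, in CPM) of the tested members of 27 miRNA lists, with the number tested in brackets; 1 point is 1 miRNA, red and blue points passed the size rule, triangles are approximate bounds for a treated count of 0, and the black bar is the list median on the log2(CPM + 1) scale. The epithelial and erythroid lists lie to the left with bars at −4.42 and −4.63, the mesenchymal list to the right at 1.30, and most other bars near 0.

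Among 23 tested miRNAs of the NF-kB and IL-1/TNF responsive list there were 1 higher and 3 lower, and the median log2 ratio was 0.24, beside 14.9% higher, 12.5% lower and a median of 0.04 over all tested miRNAs. miR-155-5p, which NF-κB induces in immune cells and glia, had 1884 and 5874 counts, or 318 and 505 CPM, a ratio of 1.59 (1.51 to 1.67), short of 2-fold. miR-146a-5p, the NF-κB-induced brake on Traf6 and Irak1, had 2666 and 3084 counts, or 450 and 265 CPM, a ratio of 0.590 (0.560 to 0.621), and 190 CPM in the IL-4/C1q library. Its seed partner miR-146b-5p had 299.5 and 285 CPM. The classical pair thus moved apart, neither past the rule.

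The 1 higher member was miR-132-5p, with 21 and 112 counts, a ratio of 2.72 (1.70 to 4.56). It is the minor arm of a CREB-responsive hairpin, and the major arm miR-132-3p had 3930 and 9026 counts, a ratio of 1.17. Its partner miR-212-3p had a ratio of 1.09. The 3 lower members were miR-203a-3p, miR-147 and miR-31a-3p. miR-147, induced in macrophages by Toll-like receptors, had 103 and 82 counts and was 2.46-fold lower (1.83 to 3.33). miR-31a-3p had 55 and 38 counts, while the major arm miR-31a-5p had a ratio of 1.32. Lists of IL-4 response and hypoxia gave 0 higher and 1 lower of 14, and 1 higher and 1 lower of 11.

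None of 5 tested members of the microglia and leukocyte list passed, with a summed level of 949 CPM untreated and 1010 CPM treated. Over all tested miRNAs 27.4% passed, so a count of 0 among 5 says little. That list's rat-named rows lack its most specific members. miR-142 and miR-223, of blood and microglial lineages, had rows named for other species only: the guinea pig-named miR-142-5p had 725 counts untreated, 80 with the mixture and 246 with IL-4/C1q, and the mouse-named miR-223-3p had 368, 28 and 238. On the same rat-named scale these were at 0.0563 and 0.0388 of the untreated level. They were picked after their values were seen.

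Arm choice differed little between the libraries. A share of 2 arms within a library does not depend on the scaling between libraries. Among 135 hairpins with both arms rat-named and at least 50 counts in each library, the 5p share moved by a median of 1.19 percentage points, and 96 moved by less than 3. The 5p arm was the larger one in 71 hairpins in either library. A change of 10 points or more, a limit chosen after the values were seen, with an interval of the odds ratio that excluded 1, was found in 7 hairpins.

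The largest change was in miR-324, a hairpin whose 5p strand is known in human cells to restrain the Hedgehog pathway. miR-324-5p had 230 and 168 counts and miR-324-3p 216 and 478. The 5p share was 51.6% untreated (Clopper-Pearson 95% interval 46.8 to 56.3) and 26.0% after the mixture (22.7 to 29.6), with 37.96% in the IL-4/C1q library. By count the larger arm was 5p in the untreated library and 3p in both treated ones. The untreated interval includes equal shares, so the larger arm of that library is not settled. The hairpin, on chr10:55233363-55233445 of the plus strand, is printed with both mature arms in capitals, 5p first.
miR-324: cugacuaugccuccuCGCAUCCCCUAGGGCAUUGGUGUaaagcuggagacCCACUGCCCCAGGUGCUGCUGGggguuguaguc

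In miR-18a the 5p share went from 20.7% (14.9 to 27.6) to 43.1% (39.0 to 47.4). The counts were 35 and 239 for miR-18a-5p and 134 and 315 for miR-18a-3p, so the higher level of miR-18a-5p described above was not shared by the 3p arm, whose ratio of 1.20 has an interval from 0.975 to 1.48. The hairpin lies on chr15:98587984-98588079 of the plus strand.
miR-18a: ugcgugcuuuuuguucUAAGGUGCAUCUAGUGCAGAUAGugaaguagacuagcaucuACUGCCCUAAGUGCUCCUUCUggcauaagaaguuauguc
The 3p arms of miR-17, miR-17-1-3p and miR-17-2-3p, had ratios of 1.13 and 1.08 beside 2.51 for miR-17-5p.

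In miR-708 both arms were lower, but unequally: miR-708-3p had 216 and 90 counts and miR-708-5p 136 and 126, so the 5p share went from 38.6% to 58.3% and the larger arm changed. miR-33, from an intron of Srebf2 and known for restraining cholesterol export, had 43 and 174 counts of the 5p and 12 and 5 of the 3p strand, a 5p share of 78.2% and 97.2%. For miR-126a the share went from 26.3% to 40.7%, with 28.5% in the IL-4/C1q library. For miR-200b it went from 1.28% to 15.2%, resting on 12 and 67 treated counts. miR-3068 went the other way, from 35.9% to 25.1%. A change of −11.98 points in miR-190a rested on 72 and 140 counts, and its odds interval spanned 1.

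**Figure D5:**
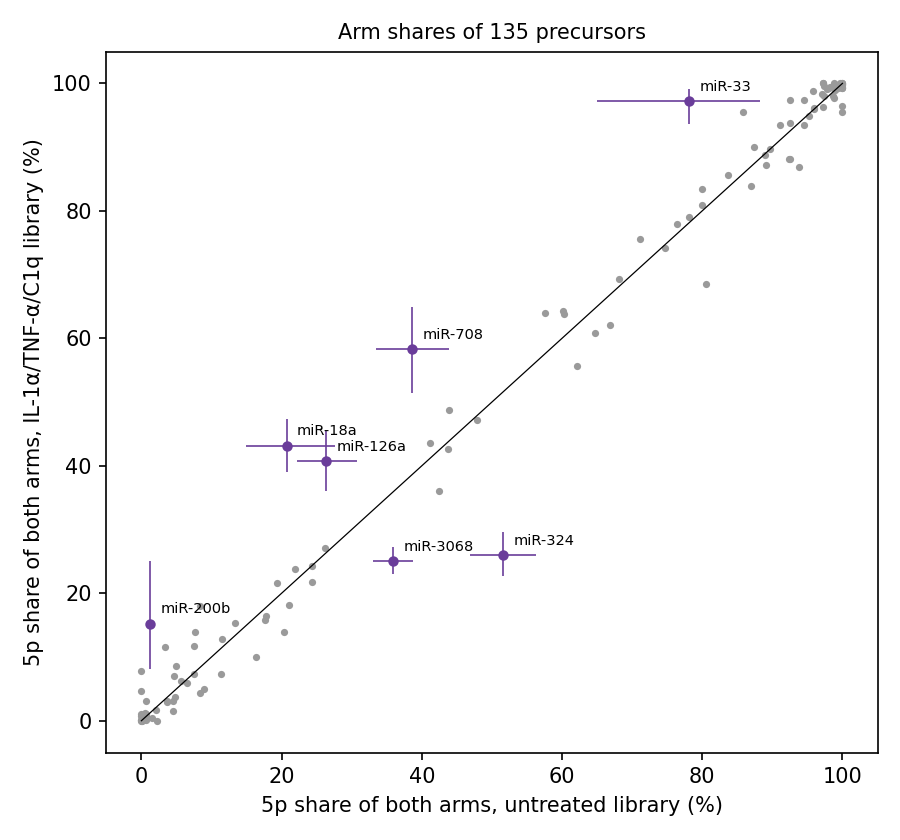
Share of 5p counts among both arms (%) in the untreated library (horizontal) and the IL-1α/TNF-α/C1q library (vertical) for 135 hairpins; 1 point is 1 hairpin, the line marks equal shares, and the 7 hairpins that moved by 10 points or more with an odds interval excluding 1 are purple with 95% Clopper-Pearson intervals. Most points lie on the line; miR-324 lies below it at 51.6% and 26.0%, and miR-18a and miR-708 above it.

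Length variants were read from the suffixes of the row names, taken here as bases gained or lost at an end relative to the database entry, a reading that the files do not spell out. Rows at database length took 67.9% of the untreated and 68.9% of the treated counts, rows with a longer 3′ end 11.3% and 10.5%, and rows with a shorter 3′ end 17.2% and 15.3%. Rows with a changed 5′ end, which shifts the seed, took 0.556% and 0.391%. miR-21-5p, at database length, carried much of the share at database length. Without it the share was 48.2% and 49.2%.

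The 1 class with a clearly larger share was rows with a substitution tag, from 3.11% to 5.05%, and to 6.74% in the IL-4/C1q library. miR-143-3p, all of whose counts are in 1 such row, went from 1.29% to 3.24%. Among miRNAs with several rows the division between rows moved unevenly. A row share moved by 3.40 percentage points in miR-194-5p and by 3.73 in miR-664-3p. The row of miR-92a-3p that is 1 base longer at the 3′ end held 93.6% in both libraries, and that of miR-219a-5p held 87.8% (85.3 to 90.1) and 92.9% (90.8 to 94.6). In miR-466c-5p, with 279 and 716 counts over 5 rows, the row longer by 1 base went from 13.3% to 23.7%. A tagged row of let-7a-5p held 94.9% and 96.3% of its counts. The tag is A19G, the 1 base by which let-7c-5p differs from let-7a-5p, and the row repeats the value of a let-7c-5p row, so the levels of these miRNAs are uncertain. miR-1-3p and miR-1b, which differ by G17A, share all their counts. None of these 4 passed the size rule.

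Set against the IL-4/C1q library, the IL-1α/TNF-α/C1q library was much closer. Of 355 rat-named miRNAs that reached 50 counts in either of these libraries, 4 passed the same rule, which is 1.13%. miR-147 was 2.16-fold higher with IL-1α/TNF-α/C1q, at 7.05 and 3.27 CPM, and miR-466b-5p was 4.63-fold higher at 5.67 and 1.23 CPM. miR-501-5p was 2.20-fold higher, and miR-217-5p, at 5.67 and 13.2 CPM, was 2.33-fold lower. All 4 are scarce. The comparisons of the treated libraries with the untreated one share that library and were not compared with each other.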

How the data were processed

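Small RNA was sequenced from 3 libraries, 1 per condition. The deposited files hold estimated counts per named row, labelled raw per the file headers. Some values are fractions, and rows that share a name can hold equal parts. They also hold a scaled signal, which the file headers call normalized. In each library the deposited signal is the count multiplied by 1 constant (1.25, 0.684 and 1.14), whose derivation the authors do not state. For aligner, counter, database version and build: not given in the sources used here.

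Rat-named rows were summed by mature name, ignoring suffixes, so a name with 2 rows of equal value, such as miR-30c-5p, has their sum. CPM is relative to the rat-named total. Ratios have exact conditional binomial 95% intervals, and arm shares have Clopper-Pearson intervals, on counts rounded to whole numbers. Reads without molecular identifiers are not independent molecules. No p-value was computed, since each group has 1 library. Against 0 counts a floor of 5 was used, set after the values were seen because the rows mostly start at 5. Seeds are those of the RefSeq entries (build GRCr8); rows with a changed 5′ end have another seed. List medians are on the log2(CPM + 1) scale.

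The miRNAs named by rule had the 12 highest or 12 lowest ratios among those that passed and reached 200 counts. Also named were the 10 most abundant of the untreated and of the IL-1α/TNF-α/C1q library. The rule added up to 4 per list by mean CPM, members of families of 3 or more with the 5 highest or lowest summed ratios, the 6 largest arm changes in each direction and the 6 largest changes between rows. Others, above all genomic neighbours, seed partners and list members past the rule, were named after their values were seen. Members and lists were chosen with earlier results of these data known.

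Alternatives were TMM factors (edgeR 4.0.16), DESeq2 1.42.0 size factors, other totals, minimums and pseudocounts. Computations used R 4.3.3 and Python 3.11.15 with numpy 2.4.6, scipy 1.17.1 and pandas 2.3.3, and were tested on simulated data.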

Additional observations from a re-analysis of the deposited data

Results flagged for a closer look

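Rows named for other species with no rat-named row of exactly the same name were outside the comparison. Among 65 such names that reached 200 counts, 4 passed the size rule upward and 26 downward, with 9 of 11 cattle-named ones lower. For 9 of the 65, miR-146a and miR-450b named for cattle among them, a rat-named miRNA was matched by number. The other 56 held all 4 higher names and 23 lower ones, but the match missed some relatives. Mouse-named miR-16-1-3p and cattle-named mir-28-p3 are among the 56, though rat-named miR-16-3p and miR-28-3p exist. The 4 higher names drew attention as signal outside the rat-named rows that stood above the untreated library, with counts divided by rat-named totals. Mouse-named miR-199b-5p, the close relative of miR-199a-5p, had 1730 counts untreated and 9495 with the mixture, a ratio of 2.8. Mouse-named miR-690 had 75 and 366, a ratio of 2.49. Mouse-named mir-3535-p3 had 127 and 558, a ratio of 2.24. Guinea pig-named miR-139-5p had 181 and 718, a ratio of 2.02. No rule on outlying replicates could be applied with 1 library per group.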

How the results depend on the processing

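The total of 101 miRNAs past the rule (55 higher, 46 lower) moved with the limits: 67 with 35 higher at 200 counts, 188 with 109 higher and 79 lower at 1.5-fold, and 30 with 5 higher and 25 lower at 4-fold. Without the epithelial, erythroid, liver and gut and HOX lists, an alternative chosen after seeing the data, 26 were lower and 55 higher. All 101 were also called, in the same direction, with TMM factors, DESeq2 size factors, a total without miR-21-5p or a total over all names, and 97 with the authors' constants, which shifted every log2 ratio by 0.10 and gave 71 higher and 42 lower. Without rows that carry a substitution tag 94 of the 101 were called (58 higher and 42 lower in all) and 7 were no longer tested: miR-143-3p, miR-215, miR-344a-3p, miR-412-5p, miR-466b-5p, miR-6325 and miR-673-5p. Lists with a median of at least 1 numbered 2, and 1 with 10 CPM added; the number at most −1 was 4 in every setting run, but without tagged rows the muscle list, at −1.02, took the place of liver and gut, at −0.75. With 10 CPM added the epithelial and erythroid medians were −2.94 and −2.28. Seed families past 2-fold numbered 3, all higher, and 7 without the most abundant member, 3 higher and 4 lower, with AGGAGCU turning from 2.04 to 0.472. The 7 arm changes did not depend on scaling. Shares at database length, with a longer and with a shorter 3′ end were 48.2%, 18.2% and 27.7% untreated and 49.2%, 17.1% and 24.9% treated without miR-21-5p, and 42.7%, 19.3% and 21.4% of rows counted once each. Of 144 named miRNAs 6 changed call: miR-20b-5p, miR-449c-5p, miR-221-5p and miR-322-3p passed under some scalings, and miR-219a-1-3p and miR-708-5p did not pass with the authors' constants. None of the named miRNAs changed direction past the rule, and the medians of the let-7 list and of the miR-23, miR-27 and miR-24 list, both near 0, changed sign.

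No paired analysis was possible because each group had 1 library. Every difference compares 2 libraries, with no estimate of the spread between cultures. With 20 counts as the minimum 127 miRNAs passed, 69 higher and 58 lower. Untreated values of 5 to 18 counts, in miR-370-3p, miR-665, miR-673-5p, miR-1188-5p and miR-485-5p, go with wide intervals on the 5 highest ratios.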

Other observations

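Rows named for other species did not always go with their rat-named relatives. Cattle-named miR-450b had 1244 counts untreated, 294.5 with the inflammatory mixture and 240.5 with IL-4/C1q, a ratio of 0.121 (95% counting interval 0.106 to 0.137), while rat-named miR-450b-5p had 2765 and 10437.5 counts, a ratio of 1.92. Cattle-named miR-146a had 281 and 84 counts, a ratio of 0.152, beside 0.590 for rat-named miR-146a-5p. Guinea pig-named miR-432-5p, of the Dlk1-Dio3 region, had 770 and 153 counts, a ratio of 0.101, on the other side from most rat-named miRNAs of that region. Human-named miR-1246 had 13657 and 3064 counts. These rows were picked after their values were seen.

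Of 372 predicted candidates with no miRNA name, 15 reached 50 counts in the untreated or the IL-1α/TNF-α/C1q library. Of these 2 were higher and 7 lower by the same size rule. Candidates took 0.0662% of the untreated counts and 0.0364% of the treated ones.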
